A study of Mus musculus with 8 samples.

Results

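The aminoacyl-tRNA synthetases are the 36 genes described here, 20 cytosolic and 16 mitochondrial, out of 38991 gene identifiers in the files. They were chosen by gene symbol, and a symbol ending in 2 marks the mitochondrial enzyme. All 36 were found in every library, and all 36 passed the filter on low values (their mean reached 1 FPKM in iPHet or in iPKO). The study measured RNA in male mouse embryonic stem cells on a C57BL/6 background, derived from blastocysts of embryonic day 3.5 on feeder fibroblasts with a MEK inhibitor and LIF and then kept in 2i, a medium that holds them in the ground state. The 2 genotypes were iPHet, the control (4 libraries), and iPKO, the Prmt5 knockout (4 libraries). The name iPHet reads as a heterozygote, so the control is not taken here as wild type for Prmt5. Prmt5 encodes an arginine methyltransferase whose substrates include the Sm proteins of the spliceosome. Both genotypes received 2 µM 4-hydroxytamoxifen for 48 hours, the treatment that induces the deletion, so the controls carry the treatment too. Most experiments of the study used 1 line of each genotype, PC1 and PC4 in the labels, so the effects of genotype and of line cannot be told apart. Nothing in the labels says that the libraries are separate cultures, and the p-values then cover only the spread among these libraries, which may be technical.

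A synthetase joins an amino acid to its own transfer RNA, the step that fixes the genetic code before the ribosome reads a message. Most amino acids have 1 enzyme for the cytosol and another, also made from a nuclear gene, for the mitochondrion, while Gars and Kars each supply both places from a single gene. In the cytosol several synthetases sit together in the multisynthetase complex. The transcription factor ATF4, which is made when amino acids run short or the integrated stress response is on, is known to raise several cytosolic synthetase genes along with genes of amino acid synthesis and transport.

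ATF4 binds elements whose letters often include TGATGNAA or, on the other strand, TTNCATCA. Both strands of the RefSeq promoter windows (GRCm38, the assembly of mm10; 250 bases before to 50 after each start site) were searched for these letters and for no other motif. A window was found for 27 of the 36 members; Cars, Hars, Lars, Nars, Rars, Vars, Wars, Hars2 and Pars2 had none. Of the 13 cytosolic members with a window, 5 held the motif (38.5%), against 0 of the 14 mitochondrial members and 4.51% of 27025 genes. These are stretches of 30 bases around a match in each of the 5, on the strand of the gene and 5′ to 3′, shown because the members that hold the letters can then be compared with their RNA values. The capitals mark the match.
Aars (chr8:111033840-111033869, + strand): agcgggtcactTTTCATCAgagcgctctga
Gars (chr6:55037960-55037989, + strand): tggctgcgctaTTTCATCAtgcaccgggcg
Iars (chr13:49682126-49682155, + strand): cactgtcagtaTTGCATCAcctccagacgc
Tars (chr15:11399655-11399684, - strand): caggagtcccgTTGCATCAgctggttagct
Yars (chr4:129189895-129189924, + strand): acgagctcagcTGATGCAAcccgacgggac
The match shown lay before the start site in Gars and Tars and after it in Aars, Iars and Yars. Of the 5 stretches 4 overlapped an exon of GENCODE release vM21, and that of Gars did not. A match is a run of letters and not a shown binding site.

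The targeted gene, Prmt5, had a mean of 62.5 FPKM (SD 10.4, n = 4) in the control and of 13.4 FPKM (SD 1.56, n = 4) in the knockout, 4.66-fold lower (exact permutation test, two-sided p = 0.0286, the lowest value possible for these group sizes). Its value covers the whole gene, and the labels do not say which exons are deleted. The files hold FPKM and no counts, so the absolute depth is unknown. Relative depth, read from the lowest values and set to 1 in iPHet 1, ran from 0.764 to 1 in iPHet and from 0.869 to 1.24 in iPKO, and its part in the results was not tested. Stem cell markers summed to 1280 to 1612 FPKM in iPHet and 1259 to 1396 FPKM in iPKO. Of these 8 markers Sox2 was called lower (91.8 ± 5.31 and 70.1 ± 2.15 FPKM, SD, n = 4 each; log2 change -0.38, limma adjusted p = 0.00539), Esrrb had iPKO wholly below iPHet and was not called (log2 change -0.20, limma adjusted p = 0.0834), and their part in the results was not tested. The 8 feeder fibroblast markers summed to 1.34 to 2.44 FPKM in iPHet and 0.977 to 1.77 FPKM in iPKO, with S100a4, Postn and Lum listed at 0 in every library, and the 7 primitive endoderm markers to 5.11 to 5.78 and 3.63 to 5.92 FPKM. Libraries of a genotype were not equally alike. Over the 36 members, libraries 1 and 3, or 2 and 4, of a genotype differed by a median absolute log2 difference of 0.0485 to 0.0692, and other libraries of the same genotype by 0.161 to 0.265. The labels give no batch that matches this, so results are also given within the odd-numbered and within the even-numbered libraries.

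In iPKO, 6 cytosolic synthetases fell and 1 rose, while no mitochondrial synthetase fell and 1 rose. The 6 that fell were Iars, Sars, Nars, Gars, Aars and Cars, by 1.3-fold to 1.61-fold on mean FPKM. The cytosolic gene that rose was Qars (1.23-fold), and the mitochondrial gene that rose was Hars2 (1.46-fold). In such bulk RNA, fewer cells that express a gene and less of its RNA per cell cannot be told apart. The test was limma on log2(FPKM + 1) over 12462 genes, with Benjamini-Hochberg adjusted p under 0.05 as the call. Among all genes tested 9.53% were called lower and 6.3% higher, against 30% lower and 5% higher of the cytosolic members and 0% and 6.25% of the mitochondrial members. At an unadjusted p under 0.05 limma gave 12 cytosolic members lower and 1 higher, and 2 mitochondrial members lower and 3 higher. The share of all genes tested at an unadjusted limma p under 0.05 is not given here for any fit. The median log2 change was -0.31 over the cytosolic members, 0.05 over the mitochondrial members and -0.04 over all genes tested. With the replicate number as a block, 12 cytosolic members were called lower and 2 higher, and 0 mitochondrial members lower and 2 higher. That fit called 16.6% of all genes tested lower and 10.9% higher. Its pairing by number is not in the labels. It counts libraries 1 and 3, and 2 and 4, as independent though they were much alike, so its p-values may be too small. With libraries 1 and 3, and 2 and 4, of each genotype averaged, limma called 0 members of either set, also with an odd/even term. Neither fit called Prmt5, the targeted gene, so a call lost there does not show that a member was unchanged. An unadjusted limma p under 0.05 was then reached by 5 cytosolic members without the term and 9 with it, all lower. In the mitochondrial set 1 member reached it without the term and 2 with it, all higher.

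**Figure D1:**
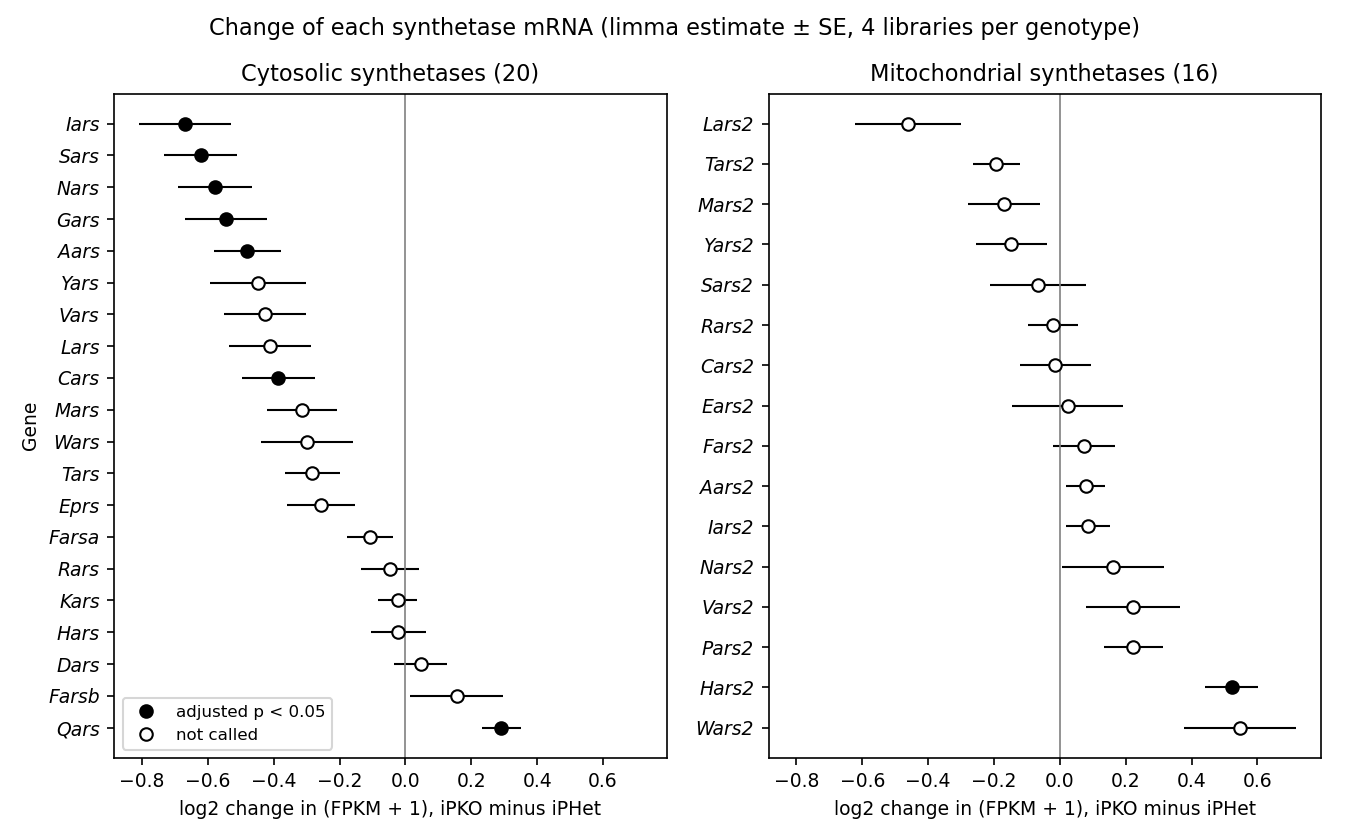
The log2 change of each of the 20 cytosolic and 16 mitochondrial synthetases (iPKO minus iPHet, limma estimate with its standard error, 4 libraries per genotype), with filled points for called genes. Of the cytosolic points 17 lie left of 0, and the mitochondrial points lie on both sides, 7 left and 9 right.

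By level the cytosolic synthetases stood above the mitochondrial ones, on FPKM, a scale per transcript length. The means over 8 libraries ran from 31.3 FPKM (Wars) to 179.99 FPKM (Gars) in the cytosolic set and from 3.01 FPKM (Wars2) to 83.9 FPKM (Lars2) in the mitochondrial set. Gars, Qars and Vars led the order, and the highest mitochondrial members after Lars2 were Iars2 (49.7 FPKM) and Tars2 (34.6 FPKM). At the low end, Wars2 (3.01 FPKM), Mars2 (5.32 FPKM) and Cars2 (5.79 FPKM) had the lowest means, and the libraries of Mars2 and Cars2 overlapped. The authors' confidence bounds had a median half-width of 4.02% of the value over cytosolic members and 10.01% over mitochondrial members, the widest median being that of Wars2 at 19.1%. Some values lay outside their own bounds, so these widths do not give the precision of the values. In iPHet 1 Gars was 189.6 FPKM with bounds of 203.5 to 213.0, and Aars2 was 18.6 FPKM with bounds of 10.8 to 12.7. Exons of other genes overlap those of Cars (Gm15580), Farsb (Sgpp2), Mars (Ddit3), Yars (C77080), Cars2 (Naxd), Ears2 (Ubfd1), Fars2 (Lyrm4 and Nrn1), Iars2 (Rab3gap2, over 2034 bases), Nars2 (C230038L03Rik) and Vars2 (Gm20483), so these values are less certain.

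The largest cytosolic fall was that of Iars, which charges isoleucine and belongs to the multisynthetase complex. Its FPKM in iPHet 1 to 4 was 111, 138, 101 and 152, and in iPKO 1 to 4 it was 68.5, 84.5, 74.2 and 83.9. Every iPKO library was below every iPHet library, and the log2 change was -0.67 (SE 0.14, limma adjusted p = 0.0162). A processed pseudogene, Gm4849, matches 1656 bases of an Iars transcript at 96.0% identity, so reads may have been shared between them. Sars, the seryl-tRNA synthetase, was 53.5, 49.2, 57.1 and 51.0 FPKM in iPHet 1 to 4 and 29.1, 38.9, 29.9 and 38.6 FPKM in iPKO 1 to 4. It fell in both pairs of iPKO libraries, more in 1 and 3 than in 2 and 4, with a log2 change of -0.62 (SE 0.11, limma adjusted p = 0.00945). Nars, which charges asparagine, was 87.9, 98.9, 89.0 and 101 FPKM in iPHet and 53.9, 71.0, 55.9 and 71.9 FPKM in iPKO. The genotypes did not overlap and the log2 change was -0.58 (SE 0.11, limma adjusted p = 0.0124).

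Gars, the glycyl-tRNA synthetase of both compartments and the most abundant member, was 189.6, 229.6, 202 and 232 FPKM in iPHet 1 to 4. In iPKO 1 to 4 it was 124, 165, 129 and 169 FPKM. In each genotype libraries 2 and 4 were the higher pair, and the highest iPKO library stayed below the lowest iPHet library (log2 change -0.54, SE 0.12, limma adjusted p = 0.0224). Leaving out iPHet 2 or 4 or iPKO 1 or 3 ended that call (limma adjusted p of 0.0556 to 0.0634). Aars, the alanyl-tRNA synthetase with a motif match near its start, was 100.5, 116, 105 and 123 FPKM in iPHet and 69.7, 84.5, 73.6 and 89.8 FPKM in iPKO. Again no library of one genotype reached the range of the other (log2 change -0.48, SE 0.10, limma adjusted p = 0.0169). Exons of Aars and Exosc6 overlap over 1326 bases on the same strand, and their reads can be exchanged.

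Cars, which charges cysteine, was close to constant in the control at 75.2, 73.7, 73.4 and 74.7 FPKM. In iPKO it was 46.5, 67.6, 52.8 and 61.8 FPKM, below every control library. The log2 change was -0.39 (SE 0.11, limma adjusted p = 0.0493), and leaving out any 1 library other than iPKO 2 ended the call, at a limma adjusted p of 0.0639 to 0.112. It also ended with no filter on low values (limma adjusted p = 0.0716), with quantile normalization (0.0743) and with median-ratio scaling (0.0845).

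**Figure D2:**
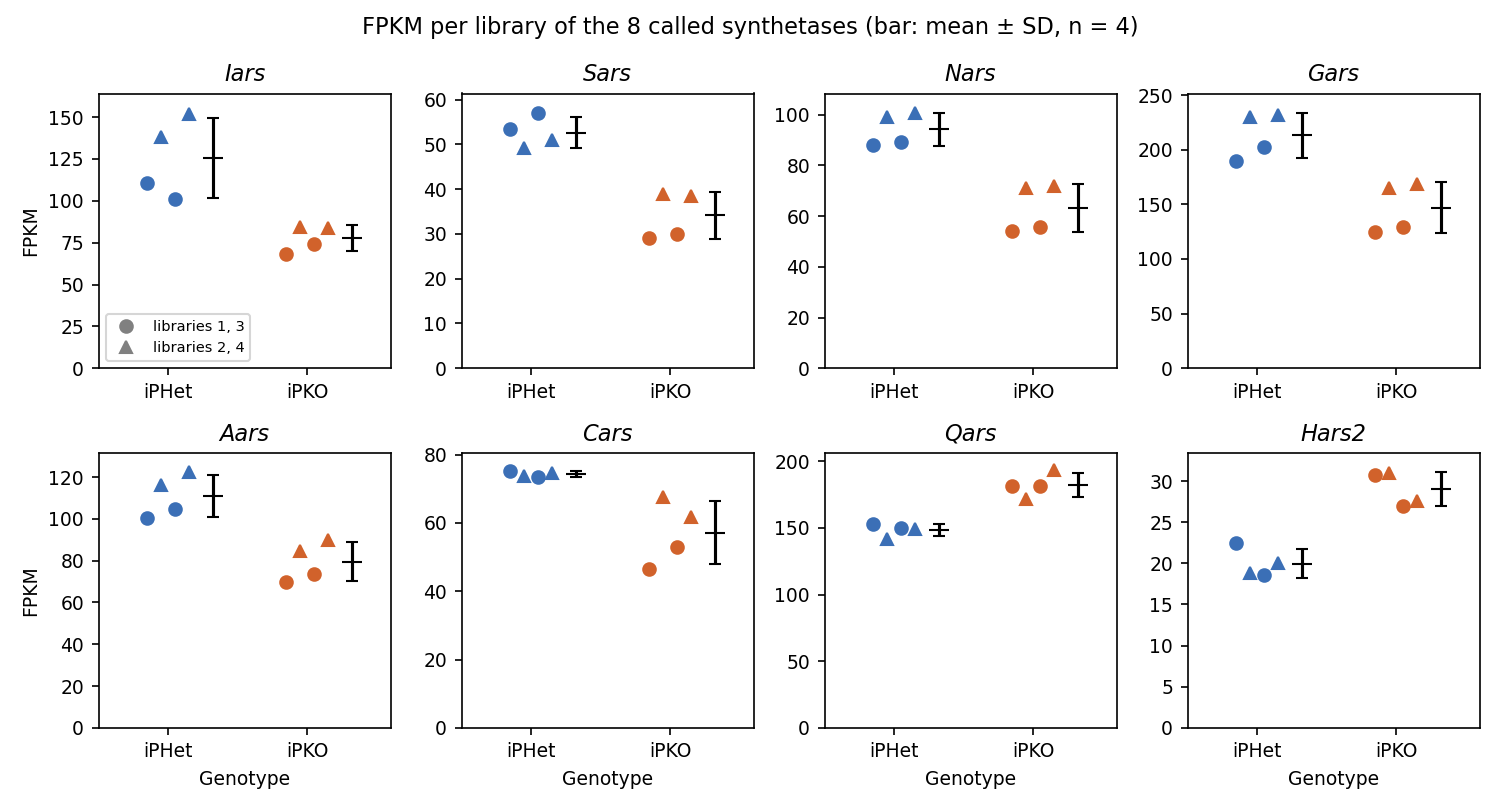
FPKM of the 8 called synthetases in each library, by genotype, with circles for libraries 1 and 3, triangles for 2 and 4, and the mean ± SD (n = 4) as a bar. In every panel the iPKO libraries lie wholly on one side of the iPHet libraries, below for 6 genes and above for Qars and Hars2.

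Another 5 cytosolic members had no overlap between the genotypes, all with iPKO lower, and were not called. With the 6 that fell these make 11 of 20 cytosolic members, where 15% of all genes tested had separate genotypes with iPKO lower. Yars, the tyrosyl-tRNA synthetase, was 71.4, 76.2, 73.2 and 79.8 FPKM in iPHet and 45.2, 63.5, 45.1 and 69.2 FPKM in iPKO (log2 change -0.45, limma adjusted p = 0.0731). Vars, which charges valine, was 123, 155, 113 and 157 FPKM in iPHet and 95.7, 90.3, 109 and 109 FPKM in iPKO (log2 change -0.43, limma adjusted p = 0.0526). For Yars the gap was wider in libraries 1 and 3, at a log2 difference of -0.67 against -0.23 in 2 and 4, and for Vars it was wider in 2 and 4, at -0.65 against -0.21. Lars, which charges leucine, was 50.5, 66.2, 50.1 and 65.4 FPKM in iPHet and 39.3, 47.8, 38.8 and 47.0 FPKM in iPKO (log2 change -0.41, limma adjusted p = 0.0585). Tars and Mars, for threonine and methionine, had log2 changes of -0.28 and -0.32 (limma adjusted p of 0.0551 and 0.0797). Yars, Lars, Tars and Mars were called lower with the replicate block, as were Eprs and Wars (limma adjusted p of 0.00588 to 0.0361), while Vars was not. That fit counts the much alike libraries 1 and 3, and 2 and 4, as independent, so its added calls are weak support.

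Eprs and Wars, for glutamate with proline and for tryptophan, had log2 changes of -0.26 and -0.30, and their genotypes overlapped (48.8 to 71.8 FPKM and 23.0 to 40.8 FPKM over the 8 libraries). The cytosolic members with smaller changes were Dars, Rars, Kars, Hars and Farsa, at log2 changes of -0.11 to 0.05, and the other subunit of phenylalanyl-tRNA synthetase, Farsb, at 0.16. Kars, the lysyl-tRNA synthetase, had control and knockout means of 91.0 ± 4.36 and 89.6 ± 3.98 FPKM (SD, n = 4 each). The sign of Kars, Hars and Rars turned positive with quantile normalization and median-ratio scaling, at log2 changes of at most 0.06. Farsa and Farsb encode subunits of 1 enzyme, and neither was called in the test without the block; Farsb, at 70.9 ± 10.7 and 79.2 ± 12.7 FPKM (SD, n = 4 each), was called higher with it (limma adjusted p = 0.0322).

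Qars, the glutaminyl-tRNA synthetase of the multisynthetase complex, was the cytosolic member called higher. It was 153, 142, 149.9 and 149 FPKM in iPHet 1 to 4 and 181, 172, 182 and 194 FPKM in iPKO 1 to 4. All 4 iPKO libraries were above all 4 iPHet libraries (log2 change 0.29, SE 0.06, limma adjusted p = 0.0146). The difference was 0.26 on the log2 scale in libraries 1 and 3 and 0.32 in 2 and 4. It stayed called without any 1 library (limma adjusted p of 0.0242 to 0.0414), but each time a library much like that left out stayed in. The call ended with libraries 1 and 3, and 2 and 4, averaged, where Prmt5 was not called either. It also ended with a correlation estimated within those pairs, where Prmt5 was called. The promoter window of Qars held no match to the searched letters.

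Among the 8 synthetases of the multisynthetase complex (Dars, Eprs, Iars, Kars, Lars, Mars, Qars and Rars) 1 fell, 1 rose and 6 were not called, at a median log2 change of -0.15. Among the 12 other cytosolic synthetases 5 fell, none rose and 7 were not called, at a median of -0.41. By catalytic class, 2 of 9 cytosolic class I genes and 4 of 10 class II genes fell, with medians of -0.39 and -0.20; Eprs, which carries both classes in 1 protein, is counted in neither. The share called lower was 12.5% in the complex, 41.7% in the other 12, 22.2% in class I and 40% in class II. The share called higher was 12.5%, 0%, 11.1% and 0%. Among all genes tested 9.53% were called lower and 6.3% higher. In the complex each share is 1 gene. Whether these groups differ was not tested. Of the 5 cytosolic members with a motif match, Aars, Gars and Iars fell and Tars and Yars were not called, and of the 8 with a window and no match Sars fell and Qars rose.

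In the mitochondrial set Hars2, the histidyl-tRNA synthetase, was the gene that rose. Its FPKM was 22.4, 18.8, 18.6 and 20.03 in iPHet 1 to 4 and 30.7, 31.0, 27.0 and 27.5 in iPKO 1 to 4. The genotypes were separate by more than the range within either (log2 change 0.52, SE 0.08, limma adjusted p = 0.00523), and the call held without any 1 library (limma adjusted p of 0.00742 to 0.019). Hars2 and Hars are neighbours on opposite strands whose exons overlap by 195 bases, and the strand of the libraries is not given in the sources used here, so reads there can be exchanged. Hars itself stood at 39.9 ± 2.32 FPKM in the control and 39.4 ± 4.06 FPKM in the knockout (SD, n = 4 each; limma adjusted p = 0.89).

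Wars2, the mitochondrial tryptophanyl-tRNA synthetase and the least abundant member, had the largest mitochondrial log2 change, 0.55 (SE 0.17, limma adjusted p = 0.064). It was 2.39, 1.94, 2.49 and 2.07 FPKM in iPHet and 4.51, 2.79, 5.03 and 2.85 FPKM in iPKO. The genotypes did not overlap, and libraries 1 and 3 of iPKO were the highest. Quantile normalization and the replicate block each called it higher (limma adjusted p of 0.035 and 0.0244).

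Lars2, for leucine, had separate genotypes in the other direction, at 103, 91.4, 99.5 and 91.8 FPKM in iPHet and 56.6, 87.8, 55.9 and 85.005 FPKM in iPKO. The difference lay mainly in libraries 1 and 3, with a log2 difference of -0.84 there and -0.08 in 2 and 4, and it was not called (limma adjusted p = 0.091). With these, 1 mitochondrial member had iPKO wholly lower and 2 had it wholly higher, where the shares among all genes tested were 15% and 10.1%.

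The other mitochondrial members overlapped between the genotypes. Pars2, for proline, was 10.02, 9.58, 11.9 and 11.2 FPKM in iPHet and 11.2, 13.8, 12.5 and 13.1 FPKM in iPKO (log2 change 0.22, limma adjusted p = 0.13). Vars2 was 14.3, 13.3, 19.8 and 14.04 FPKM in iPHet and 18.5, 16.8, 21.4 and 15.3 FPKM in iPKO, where iPHet 3 was above all iPKO libraries but 1. Tars2, for threonine, was 37.2, 37.2, 38.1 and 35.3 FPKM in iPHet and 29.5, 33.5, 30.4 and 35.7 FPKM in iPKO, with only iPKO 4 reaching the control range (log2 change -0.19, limma adjusted p = 0.106). Both remaining members with the larger changes, Mars2 (log2 change -0.17) and Nars2 (0.16), showed the split by library number within the control. Mars2, for methionine, was 6.71, 4.93, 6.36 and 4.84 FPKM in iPHet and 5.39, 4.69, 4.79 and 4.84 FPKM in iPKO. Nars2, for asparagine, was 11.8, 8.09, 11.2 and 7.26 FPKM in iPHet and 11.7, 9.15, 10.3 and 11.5 FPKM in iPKO. In both genes iPHet 1 and 3 were above iPHet 2 and 4. Aars2, Cars2, Ears2, Fars2, Iars2, Rars2, Sars2 and Yars2 had log2 changes of -0.15 to 0.09 and none was called.

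Read library by library, the sets differed in how they followed the genotype. The 20 cytosolic members summed to 1571, 1779.9, 1575 and 1812 FPKM in iPHet 1 to 4 and to 1271, 1492, 1302 and 1533 FPKM in iPKO 1 to 4. Every iPKO sum was below every iPHet sum, and within a genotype libraries 2 and 4 were above 1 and 3. The total FPKM over all genes also differed between libraries, and as a percent of it the cytosolic members made up 0.342, 0.426, 0.343 and 0.43 in iPHet 1 to 4 and 0.309, 0.359, 0.315 and 0.367 in iPKO 1 to 4. On that scale the genotypes overlapped, with iPKO 2 and 4 above iPHet 1 and 3, and each iPKO library was below the iPHet library of its number. The 16 mitochondrial members summed to 342, 315, 344 and 320.1 FPKM in iPHet and to 301, 340.4, 298 and 337 FPKM in iPKO, and these ranges overlapped. As a percent of total FPKM they made up 0.0745 to 0.076 in iPHet and 0.072 to 0.0819 in iPKO, also with overlap.

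**Figure D3:**
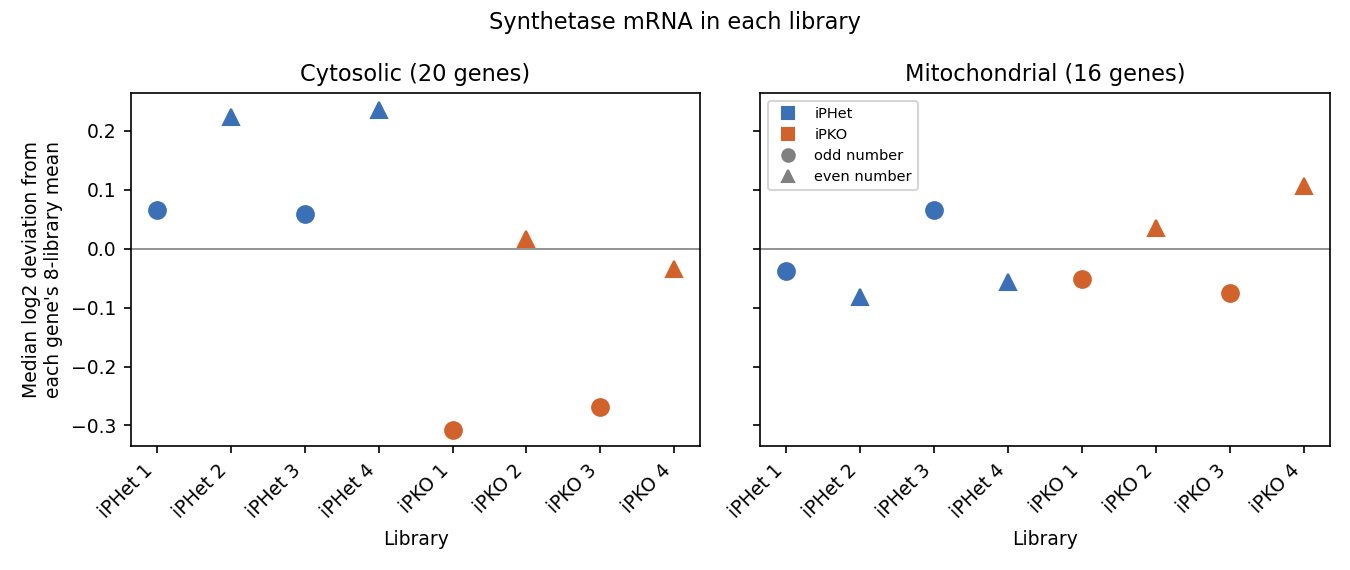
For each library, the median over the members of a set of the log2 deviation from each gene's own mean over 8 libraries, with colours for genotype and circles or triangles for odd or even library numbers. Cytosolic medians are 0.06 to 0.24 in iPHet and -0.31 to 0.02 in iPKO, and mitochondrial medians overlap, at -0.08 to 0.07 and -0.07 to 0.11.

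Within library numbers, 15 of the 20 cytosolic members were lower in iPKO both in libraries 1 and 3 and in libraries 2 and 4, 2 were higher in both, and 3 had opposite signs. All 6 that fell were lower in both, and Qars was higher in both. Of the 16 mitochondrial members 3 were lower in both, 5 higher in both, Hars2 among them, and 8 had opposite signs. The cytosolic median log2 difference was -0.33 in libraries 1 and 3 and -0.24 in 2 and 4. The mitochondrial median was -0.09 and 0.17, so its sign depended on the pair. Among all genes tested 64% had the same sign in both, with medians of -0.05 and -0.02.

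Each amino acid with an enzyme in both compartments gives a ratio of cytosolic to mitochondrial mRNA within a library. The ratios were taken on FPKM + 1, so a scaling shared by the whole library cancels only in part for low members such as Wars2. There were 16 such pairs, with Eprs, which charges both glutamate and proline, set against Ears2 and against Pars2. In 15 pairs the cytosolic partner had the higher mean FPKM, by 1.48-fold (Tars over Tars2) to 11.3-fold (Cars over Cars2), and in the remaining pair Lars was below Lars2, at a ratio of 0.604. The log2 ratio was lower in iPKO in 15 pairs, with a median difference of -0.43, and the exception was Lars over Lars2 (0.05). In 6 of the 16 pairs no iPKO ratio reached the iPHet range, and in the other pairs the genotypes overlapped. Among single genes tested 15% had iPKO wholly lower and 10.1% wholly higher. The largest difference, that of Wars over Wars2, was among those that overlapped, at 3.46 ± 0.31 in iPHet and 2.61 ± 0.54 in iPKO (log2, SD, n = 4 each). Iars over Iars2 went from 1.34 ± 0.26 to 0.59 ± 0.25 (log2, SD, n = 4 each), where Iars2 itself was near level at 48.2 and 51.3 FPKM. Sars over Sars2 went from 2.53 ± 0.08 to 1.98 ± 0.08 and was among the steadiest ratios within a genotype. The ratio of Hars to Hars2 went from 0.97 ± 0.11 to 0.43 ± 0.15, with the mitochondrial gene as the one that changed. The ratios of Rars over Rars2 (-0.03) and Tars over Tars2 (-0.09) differed little. In 13 of the 16 pairs the ratio was lower in iPKO within both pairs of library numbers. No test was made of these ratios as a set. The same counts over other gene pairs are not given here, so these counts cannot be called unusual.

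**Figure D4:**
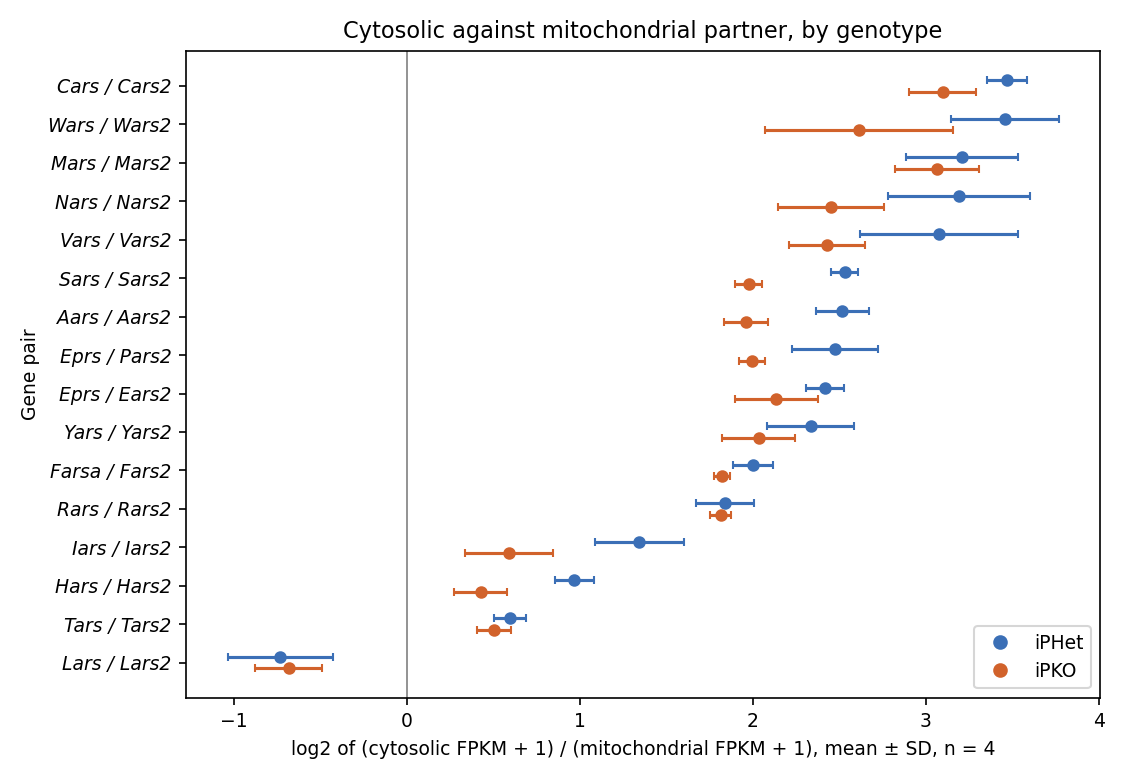
The log2 ratio of each cytosolic synthetase to its mitochondrial partner, on FPKM + 1, as the mean ± SD of 4 libraries in iPHet and in iPKO. The iPKO mean lies left of the iPHet mean in 15 of the 16 pairs, the exception being Lars over Lars2.

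Genes that work beside the synthetases were read from lists named with the members. Of 11 partners and proofreading factors 2 rose, 2 fell and 7 were not called, where 6.3% of all genes tested were called higher and 9.53% lower. Averaging libraries 1 and 3, and 2 and 4, ended all 4 calls, and Prmt5 was not called then either. When only protein-coding genes and an odd/even term were fitted, the averages left 1 gene called, higher. Mtfmt, which formylates the initiator methionyl-tRNA charged by Mars2 in mitochondria, was 11.3, 11.5, 13.02 and 10.2 FPKM in iPHet and 24.04, 20.1, 26.3 and 21.02 FPKM in iPKO. It rose 1.99-fold, more than any synthetase (log2 change 0.93, SE 0.10, limma adjusted p = 0.00141). In mitochondria glutaminyl-tRNA is made without a dedicated synthetase, by an amidotransferase acting on tRNA charged with glutamate. Its subunit Qrsl1 rose from 12.0 ± 0.82 to 16.1 ± 0.59 FPKM, the subunit listed as Pet112 (Gatb) fell from 10.7 ± 0.93 to 7.24 ± 0.73 FPKM (4 libraries each, ± SD), and Gatc was not called at 10.8 and 10.1 FPKM. Dtd2, a deacylase that clears wrongly charged tRNA, fell from 4.67 ± 0.21 to 3.01 ± 0.45 FPKM (SD, n = 4 each). The scaffold genes of the multisynthetase complex, Aimp1, Aimp2 and Eef1e1, were not called, at log2 changes of -0.08, -0.01 and -0.22.

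Of 8 elongation factors that take charged tRNA to the ribosome or move it there, limma called 0, and 1 was lower at an unadjusted p under 0.05. They included Eef1a1 at 8925 and 9361 FPKM and the mitochondrial factor Tufm at 48.02 and 38.6 FPKM. Of 7 genes of tRNA maturation Osgep, an enzyme of a tRNA base modification, and Rtcb, the tRNA ligase, fell, and 5 were not called. Neither was called without iPHet 3 or iPKO 1, 3 or 4, and without iPHet 1, 2 or 4 only 1 of the 7 was. Without iPHet 1, 2 or 4 the shares of all genes tested called lower were 6.29%, 6.73% and 5.95%. With libraries 1 and 3, and 2 and 4, averaged, Osgep and Rtcb were not called, and nor was Prmt5. A further list held Atf4, genes known as its targets, and the kinase genes Eif2ak4 and Eif2ak3, which are not counted as targets. Of its 17 tested genes 12 fell and 1 rose, where 9.53% and 6.3% of all genes tested did. The gene that rose was Eif2ak4 (log2 change 0.32, limma adjusted p = 0.0369). Asns, Ddit3, Sesn2 and Eif2ak3 were not called. With libraries 1 and 3, and 2 and 4, averaged, limma called 0 of the 17 genes and did not call Prmt5 either. When only protein-coding genes and an odd/even term were fitted to the averages, it called 7 of them lower. Without iPHet 2, iPHet 4 or iPKO 1 those called lower numbered 6, 6 and 7. Atf4 was 285, 282, 278 and 283 FPKM in iPHet 1 to 4 and 146, 218, 147 and 216 FPKM in iPKO 1 to 4. Atf4 was lowest in iPKO 1 and 3, as were Lars2 and the cytosolic synthetases that fell (Iars, Sars, Nars, Gars, Aars and Cars). So were other members that were not called: Eprs, Farsa, Lars, Mars, Tars, Wars, Yars, Ears2, Sars2, Tars2 and Yars2. Within iPHet Atf4 and Cars were near level. There Iars, Nars, Gars and Aars were higher in libraries 2 and 4, and Sars in 1 and 3. A link between Atf4 and the synthetases was not tested. Earlier results of these data were known when the list with Atf4 was drawn up, so that list is not independent support for the values of the synthetases.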

How the data were processed

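RNA of 8 libraries was sequenced as paired reads after an Illumina TruSeq preparation of total RNA, per the labels' protocols. The authors deposited FPKM values per gene and library with confidence bounds, per the file headers. Trimmomatic and build mm10 come from the submitters' processing notes, and for the aligner, strand and the program behind the FPKM values the sources used here name nothing. Of 38991 identifiers, 19 had several loci and were summed.

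Values were log2(FPKM + 1), which understates changes at low level. The 12462 genes whose mean reached 1 FPKM in iPHet or in iPKO were tested with limma 3.58.1 with an intensity trend. The programs were R 4.3.3 and its package data.table, version 1.17.8. The limma test was checked on simulated data with independent libraries. Libraries here were alike in pairs (estimated correlation within pairs of 0.839), so that check does not show that the test holds for them. The adjusted p is Benjamini-Hochberg over all genes tested, called below 0.05. Fold values are ratios of mean FPKM. Same-numbered libraries of the genotypes deviated together only weakly (r of 0.104, 0.162, 0.204 and 0.107 for numbers 1 to 4), a pairing from the data and not the labels. For iPHet 1 to 4 the highest r with an iPKO library of another number was 0.077, 0.124, 0.0862 and 0.0905. Exon overlaps came from GENCODE vM21, and copies from blastn 2.17.0 (at least 100 bases at 95% identity). Alternatives were other pseudocounts, filters and scalings, the replicate block, odd/even terms, pair averages, an estimated correlation within pairs, and leaving out each library.

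The members, lists and tests were chosen with earlier results of these data known. Every called member and the 8 members of each compartment with the largest change are given by library, and other members by log2 change or by range. Some items are not reported here.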

Additional observations from a re-analysis of the deposited data

Results flagged for a closer look

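Cars2, the mitochondrial cysteinyl-tRNA synthetase, was 6.73 FPKM in iPHet 4, apart from the other 3 control libraries, of which the highest was 5.54 FPKM. Dixon's ratio of the gap to the range was 0.961, above the 95% critical value for 4 samples. It was the only such case among the 72 groups of 4 libraries examined (36 members in 2 genotypes), and chance gives about 1 in 20.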

How the results depend on the processing

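The absolute depth is unknown, and 4 libraries per genotype limit the precision. Over the 19 alternatives the cytosolic median log2 change stayed below 0 (-0.38 to -0.25). The mitochondrial median was -0.011 without iPKO replicate 4 and above 0 otherwise (up to 0.0732 without 1 library and 0.101 with median-ratio scaling).

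Cytosolic members called lower numbered 6, with 12 under the replicate block (same-numbered libraries paired), 13 with an odd/even term, 5 with quantile normalization, and 4 to 7 without 1 library. Those called higher numbered 1, with 2 under the block and 2 with the term. Mitochondrial members called higher numbered 1, with 2 under quantile normalization, 2 under the block and 2 with the term, which also gave 2 lower. Pair averages without and with the term called 0 members of either set in any direction. So did protein-coding pair averages with the term and the estimated correlation within pairs (0.839). The smallest limma adjusted p over the members were 0.45, 0.211, 0.0633 and 0.106 in these 4 fits. Prmt5 was called lower by the protein-coding averages and the estimated correlation, and not by the pair averages over all genes without or with the term. Over all genes the 1973 calls became 3427 under the block, 4729 with the term, 7, 6, 198 and 52 in those 4 fits, and 1264 to 1416 without 1 library (1264 without iPHet 4, 1309 without iPKO 1). The split of 1188 lower and 785 higher was 946 and 936 with quantile normalization and 834 and 1018 with median-ratio scaling. The causes were not tested.

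Signs turned only in members that were not called. With quantile normalization Cars2, Hars, Kars, Rars and Rars2 were at 0.0193, 0.0289, 0.061, 0.00996 and 0.00942, and with median-ratio scaling at 0.0352, 0.035, 0.0335, 0.00995 and 0.0331. Without 1 library, the range was -0.0723 to 0.0646 for Cars2, -0.0831 to 0.142 for Ears2, -0.0663 to 0.0292 for Hars, -0.0676 to 0.0116 for Rars2 and -0.159 to 0.0303 for Sars2. The other settings kept every member's sign, and the replicate block ended no member's call.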
